A study of Mus musculus with 2 samples.

Results

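The genes described are those of the STING pathway and of nucleic acid sensing in tumour endothelial cells (ECs). They were chosen by name: Tmem173 (which encodes STING), Tbk1, Ikbke, Irf3, Trex1, Enpp1, Zbp1, Ifih1 and Ddx58. Of these 9 genes, 8 have a row among the 17139 genes listed in both libraries, and Trex1 is not analysed here. The data are droplet-based single-cell RNA sequencing of CD31+ ECs sorted by FACS from Lewis lung carcinoma (LLC) tumours of adult C57BL/6 mice (C57BL/6 J per the methods). LLC is a mouse lung cancer line that was implanted under the skin. The PBS library came from a tumour injected with 70 µl of PBS (0 µg of cGAMP), and the cGAMP library from a tumour injected with 14 µg of cGAMP in 70 µl of PBS. Per the methods the ECs were taken 24 h after the injection, although a different time is given elsewhere in the study. Each library came from 1 mouse, so that no test between conditions was possible, and treatment, mouse and library preparation cannot be told apart.

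STING is an adaptor of the endoplasmic reticulum that binds cGAMP, the cyclic dinucleotide made by the DNA sensor cGAS. Bound STING moves to the Golgi and recruits the kinase TBK1, which phosphorylates the transcription factor IRF3 and starts type I interferon production. RIG-I (Ddx58) and MDA5 (Ifih1) are RNA helicases that reach the same kinases from double-stranded RNA, and ZBP1 binds nucleic acids in the left-handed Z form and can start cell death. The genes of these sensors are themselves known as interferon-stimulated genes, whereas Tbk1 and Irf3 are expressed in most cell types.

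Summed over its 2517 cells the PBS library had 92081146 UMIs (unique molecular identifiers, each standing for 1 captured transcript), and the 1340 cells of the cGAMP library had 63366746. The median cell had 29780 and 41178 UMIs, respectively. In all, 1 cell barcode occurred in both libraries. All 8 endothelial markers were detected in both libraries. The summed level of the 13 listed of 16 leucocyte markers was 21.5 CPM (counts of UMIs per 1000000) in the PBS library and 57.9 CPM in the cGAMP library. In the cGAMP library 1 of the 13 was at 0. Their defining gene Ptprc stood at 0.25 and 0.60 CPM. Levels are given below as CPM of all UMIs of a library or cluster, with exact Poisson 95% intervals in brackets. Ratios are log2 values of cGAMP over PBS with exact 95% intervals. These intervals hold counting error alone. The 9509 genes with at least 5 CPM in a library are the background, and their median log2 ratio was -0.08.

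Among the sensing genes Zbp1 stood far apart from the others. It was 5.97-fold higher in the cGAMP library, Ifih1 was 1.95-fold higher and Ddx58 was 1.33-fold higher, while Tmem173, Tbk1 and Irf3 of the STING pathway differed by at most 1.18-fold. Of the 6 sensing genes with at least 5 CPM, 5 were higher in the cGAMP library, against 40.4% of all genes tested. At least 2-fold higher was 1 of the 6, against 1.82% of all genes tested. None of the 6 was at least 2-fold lower, against 1.7% of all genes tested. With median-of-ratios scaling in place of CPM, 2 of the 6 were at least 2-fold higher, since Ifih1 then had a log2 ratio of 1.04. The median log2 ratio of the 6 genes in CPM was 0.32. Ikbke and Enpp1 lay below 5 CPM in both libraries.

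**Figure D1:**
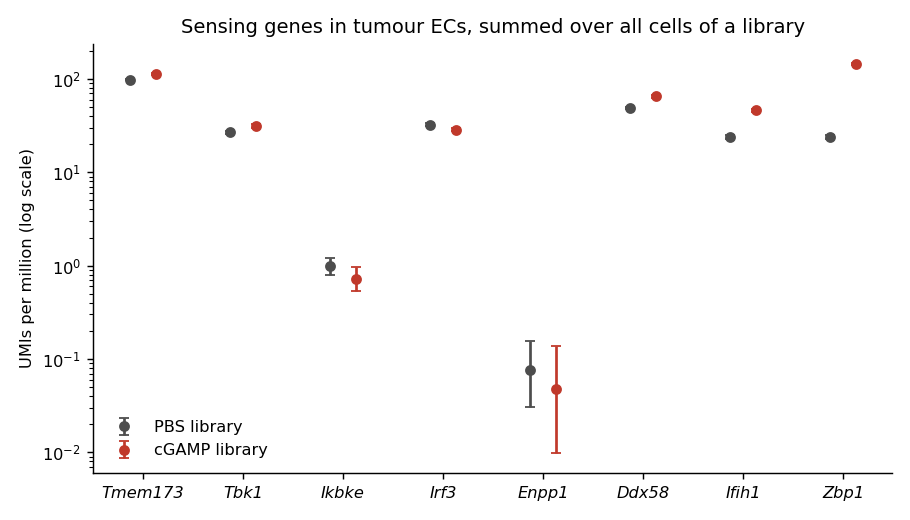
Levels of the 8 listed sensing genes, in CPM on a log axis, in the PBS library (grey) and the cGAMP library (red), with exact Poisson 95% intervals. The widest gap between the libraries is that of Zbp1, at 23.97 and 143 CPM, whereas Ikbke and Enpp1 lie below 1 CPM.

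Tmem173, the gene of STING itself, was detected throughout the ECs of both libraries. It had 9027 UMIs in the PBS library, or 98.0 CPM (96.0 to 100.1), and 7145 UMIs in the cGAMP library, or 113 CPM (110.2 to 115). The log2 ratio was 0.20 (0.16 to 0.25). Without thinning, 85.7% of PBS cells and 93.1% of cGAMP cells held a Tmem173 UMI. Because cells of the cGAMP library were deeper, cells were also thinned to 5000 UMIs each, which left 2447 PBS cells and 1327 cGAMP cells and removed 70 and 13 shallower ones. At that equal depth the shares were 36.9% (35.0 to 38.9) and 40.8% (38.2 to 43.5), and the intervals overlapped. As a guide to background in ECs, the leucocyte genes Lyz2, Cd68, C1qa and Fcer1g gave thinned shares of 2.57%, 3.15%, 0.245% and 2.13% in the PBS library, and of 5.20%, 4.75%, 2.19% and 3.32% in the cGAMP library. The share for Tmem173 was above this level in both libraries.

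Tbk1 encodes the kinase that STING recruits. It stood at 26.7 CPM (25.6 to 27.8) in the PBS library and at 31.5 CPM (30.1 to 32.9) in the cGAMP library, a log2 ratio of 0.24 (0.15 to 0.32). Its thinned share of cells was 12.5% (11.3 to 13.9) and 16.7% (14.7 to 18.8), and here the intervals did not overlap. With cells thinned to 10000 UMIs instead, the shares of 22.5% (20.8 to 24.3) and 26.6% (24.2 to 29.1) had overlapping intervals. Ikbke, which encodes the related kinase IKKε, was nearly absent from these cells, with 91 UMIs in the PBS library and 46 UMIs in the cGAMP library. That amounts to 0.988 CPM (0.796 to 1.21) and 0.726 CPM (0.531 to 0.968). The interval of its log2 ratio ran from -0.99 to 0.08 and no difference was detectable at this depth. Its thinned shares of cells, 0.327% and 0.0754%, were below those of the leucocyte genes Lyz2, Cd68 and Fcer1g in both libraries. The share of C1qa was lower than that of Ikbke in the PBS library, at 0.245%, with overlapping intervals. In the cGAMP library it was higher, at 2.19%. Ikbke overlaps 2 genes on the other strand.

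Irf3, the transcription factor that TBK1 phosphorylates, was the only one of the 6 sensing genes above 5 CPM with a lower level in the cGAMP library. It stood at 32.3 CPM (31.2 to 33.5) against 28.7 CPM (27.4 to 30.02), with a log2 ratio of -0.17 (-0.26 to -0.09). Relative to the median of all genes tested, which was also below 0, the difference was smaller. The thinned shares of cells, 14.6% and 13.6%, had overlapping intervals. Irf3 overlaps Bcl2l12 on the other strand.

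Enpp1 encodes the ectoenzyme that hydrolyses cGAMP outside cells. It had 7 UMIs among 2517 cells of the PBS library and 3 UMIs among 1340 cells of the cGAMP library, and its thinned share was 0 in both. A count of 0 allows a share of up to 0.123% of the thinned PBS cells and 0.226% of the thinned cGAMP cells with a UMI. The transcript of this enzyme was therefore at the detection limit in the ECs, and no ratio is given.

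Zbp1, Ifih1 and Ddx58 are the genes of the sensors, and the promoter windows of the helicase genes are shown first because they hold matches to the interferon-stimulated response element (ISRE), the motif bound by IRF complexes. Windows of 250 bases before to 50 bases after the gene start were taken from RefSeq (GRCm38.p6), where 6 of the 8 listed sensing genes had an entry, and Tmem173 and Zbp1 had none. The motif searched was GAAANNGAA, the core of the ISRE, on both strands. It occurred in 8.56% of all 32851 windows of this length, and among the 6 sensing genes it was found in Ifih1 and Ddx58. The windows of Tbk1, Ikbke, Irf3 and Enpp1 held no match, although Tbk1 was higher in the cGAMP library, with a log2 ratio of 0.24 (0.15 to 0.32). Adding 1 A to the 3′ end of the motif, or 1 A and then C, lowered the share of all windows to 3.44% and to 0.819%, and the same 2 genes still held a match. The 250 bases before the gene start are given for Ifih1 (chr2:62646256-62646505, minus strand), Ddx58 (chr4:40239826-40240075, minus strand) and, as a sensing gene with no match and no higher level in the cGAMP library, Irf3 (chr7:44997398-44997647, plus strand). The sites after the start are given with up to 10 bases on either side for Ifih1 (chr2:62646206-62646233) and Ddx58 (chr4:40239804-40239825). Capitals mark every match.
Ifih1 before the start: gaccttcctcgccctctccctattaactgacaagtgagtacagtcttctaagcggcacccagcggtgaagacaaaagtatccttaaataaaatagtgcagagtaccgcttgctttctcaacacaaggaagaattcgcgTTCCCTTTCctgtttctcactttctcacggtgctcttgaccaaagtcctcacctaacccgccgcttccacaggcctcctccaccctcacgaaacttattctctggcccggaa
Ifih1 site after the start: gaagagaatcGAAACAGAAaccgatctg
Ddx58 before the start: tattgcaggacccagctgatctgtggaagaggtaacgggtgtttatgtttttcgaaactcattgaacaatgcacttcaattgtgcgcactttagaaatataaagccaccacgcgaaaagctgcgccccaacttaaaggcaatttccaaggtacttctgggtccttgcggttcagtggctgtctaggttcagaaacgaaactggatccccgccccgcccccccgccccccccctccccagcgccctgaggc
Ddx58 site after the start: agtTTCGATTTCctatggccag
Irf3 before the start: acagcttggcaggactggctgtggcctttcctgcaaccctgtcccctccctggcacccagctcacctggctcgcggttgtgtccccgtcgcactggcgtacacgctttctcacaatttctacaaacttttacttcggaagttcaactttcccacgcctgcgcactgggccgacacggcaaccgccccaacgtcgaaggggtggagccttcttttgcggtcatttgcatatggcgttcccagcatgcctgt
In Ifih1 a match on the opposite strand began 112 bases before the gene start, and a second match, on the strand of the gene, began 32 bases after it. In Ddx58 the match lay on the opposite strand and began 3 bases after the gene start. These matches are a description of the letters in the windows and show no binding.

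Zbp1 (chr2:173206612-173218923, minus strand) had 2207 UMIs in the PBS library and 9067 UMIs in the cGAMP library. These are 23.97 CPM (23.0 to 24.99) and 143 CPM (140.2 to 146), a log2 ratio of 2.58 (2.51 to 2.65). Only 0.284% of the genes tested had a higher ratio. The difference was seen in how many cells carried the transcript as well as in the sum: at equal depth 8.17% (7.12 to 9.33) of PBS cells and 41.5% (38.9 to 44.2) of cGAMP cells held a Zbp1 UMI, and without thinning the shares were 24.99% and 81.8%. Cells with 5 or more Zbp1 UMIs numbered 146 of 2517 in the PBS library and 604 of 1340 in the cGAMP library, and the highest cell held 39 and 66 UMIs. A small number of PBS cells therefore reached counts of the same order as in the cGAMP library.

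Ifih1 (chr2:62595798-62646255, minus strand) stood at 23.7 CPM (22.7 to 24.7) in the PBS library and at 46.2 CPM (44.5 to 47.9) in the cGAMP library. The log2 ratio was 0.96 (0.88 to 1.04). At equal depth 10.6% (9.43 to 11.9) of PBS cells and 17.0% (15.0 to 19.1) of cGAMP cells held a UMI. In both libraries the highest cell had 22 UMIs.

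Ddx58 (chr4:40203773-40239828, minus strand) had the highest level of the sensor genes in the PBS library, at 49.1 CPM (47.6 to 50.5), and stood at 65.0 CPM (63.1 to 67.1) in the cGAMP library. The log2 ratio was 0.41 (0.35 to 0.47). The thinned shares of cells, 21.5% (19.8 to 23.1) and 27.7% (25.3 to 30.1), did not overlap. At 5000 UMIs per cell 4 of the 8 genes, Tbk1, Zbp1, Ifih1 and Ddx58, thus had shares with separate intervals between the libraries. At 10000 UMIs 3 genes had, without Tbk1. Among the leucocyte genes at 5000 UMIs, Lyz2 also had separate intervals (1.98 to 3.28% and 4.07 to 6.53%). So had C1qa (0.09 to 0.53% and 1.47 to 3.12%), while those of Cd68 and Fcer1g overlapped. The share of all genes with separate intervals was not computed. The leucocyte markers were also higher in the cGAMP library, and when cells with 3 or more leucocyte marker UMIs were left out, which kept 2201 PBS cells and 783 cGAMP cells, the log2 ratio was 2.49 for Zbp1, 0.89 for Ifih1, 0.39 for Ddx58 and 0.15 for Tmem173.

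The cells of both libraries were next grouped into 8 clusters, to ask whether the differences were shared by the EC states. Clusters were built without the sensing genes, the interferon genes and all genes that differed at least 2-fold between the libraries. Cluster 2 was stalk-like (led by Ackr1 and Selp), cluster 4 arterial-like (Gja4, Nts), clusters 5 (Gal, Chga) and 7 (Ankrd1, Pgf) tip-like, and clusters 3 (Hist1h1b) and 6 (Cenpf) proliferative-like. Cluster 1, led by Ramp3 and Esm1, and cluster 8, led by Igfbp5 and Ctsh, were left unnamed. In cluster 8, 15 stalk markers were at least 2-fold raised, but none of them was among its 10 leading genes. The smallest, cluster 8, held 46 PBS cells and 54 cGAMP cells, and the largest, cluster 1, held 620 and 270. Of the 6 sensing genes above 5 CPM, 3 were higher in the cGAMP library in every cluster, namely Zbp1, Ifih1 and Ddx58, against 13.5% of all genes tested. When clusters were instead built from all variable genes but the sensing genes, only Zbp1 was higher in every cluster, and the lowest log2 ratios of Ifih1 and Ddx58 were -0.11 and -0.05. Without integration Ddx58 was higher in 5 of 6 clusters, with a lowest log2 ratio of -0.08, and Tbk1 was higher in all 6. At resolution 0.3, with 4 clusters, Tbk1 was higher in every cluster beside the other 3 genes. The share of all genes tested that was higher in every cluster changed too. It was 25.8% at resolution 0.3, 18.0% without integration and 11.7% with all variable genes but the sensing genes.

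Zbp1 was the gene with the widest range of ratios among clusters. In the PBS library its level was highest in the tip-like cluster 5 (34.9 CPM) and in cluster 1 (34.7 CPM), whose intervals overlapped, followed by the arterial-like cluster (23.0 CPM) and the tip-like cluster 7 (22.0 CPM). It was lower in the proliferative-like clusters 3 (17.8 CPM) and 6 (12.0 CPM), and lowest in the stalk-like cluster (8.76 CPM) and in cluster 8 (3.89 CPM, 4 UMIs). In the cGAMP library the levels were closer together, from 110.1 CPM in cluster 6 and 110.2 CPM in cluster 3 through 128 CPM in cluster 1, 143 CPM in the arterial-like cluster, 145 CPM in cluster 8 and 162 CPM in the stalk-like cluster to 191 and 208 CPM in the tip-like clusters 5 and 7. The highest cluster exceeded the lowest by 8.98-fold in the PBS library and by 1.89-fold in the cGAMP library. The log2 ratio was thus lowest in cluster 1, at 1.88 (1.76 to 1.999), and reached 4.21 (3.89 to 4.55) in the stalk-like cluster and 5.22 (3.84 to 7.11) in cluster 8. The intervals of the stalk-like cluster and of cluster 8 lay above those of the other 6 clusters.

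Ifih1 followed a similar order with smaller ratios. Its PBS level ran from 11.7 CPM (6.03 to 20.4, 12 UMIs) in cluster 8 to 30.4 CPM in the arterial-like cluster. Its cGAMP level ran from 30.3 CPM in cluster 3 to 62.3 CPM in cluster 7. The log2 ratio was lowest in cluster 1, at 0.65 (0.49 to 0.81), was 1.34 (1.11 to 1.57) in the stalk-like cluster and was 2.33 (1.46 to 3.34) in cluster 8. All 8 intervals lay above 0.

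Ddx58 was already highest in the stalk-like cluster of the PBS library, at 64.8 CPM, where Zbp1 was among its lowest. Its log2 ratio ranged from 0.01 (-0.12 to 0.14) in cluster 1 to 0.69 (0.39 to 0.997) in the tip-like cluster 7, and 7 of 8 intervals lay above 0. In cluster 1 its level was 55.5 CPM in the PBS library and 56.0 CPM in the cGAMP library, so that no difference was detectable there although Zbp1 and Ifih1 differed in the same cells.

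**Figure D2:**
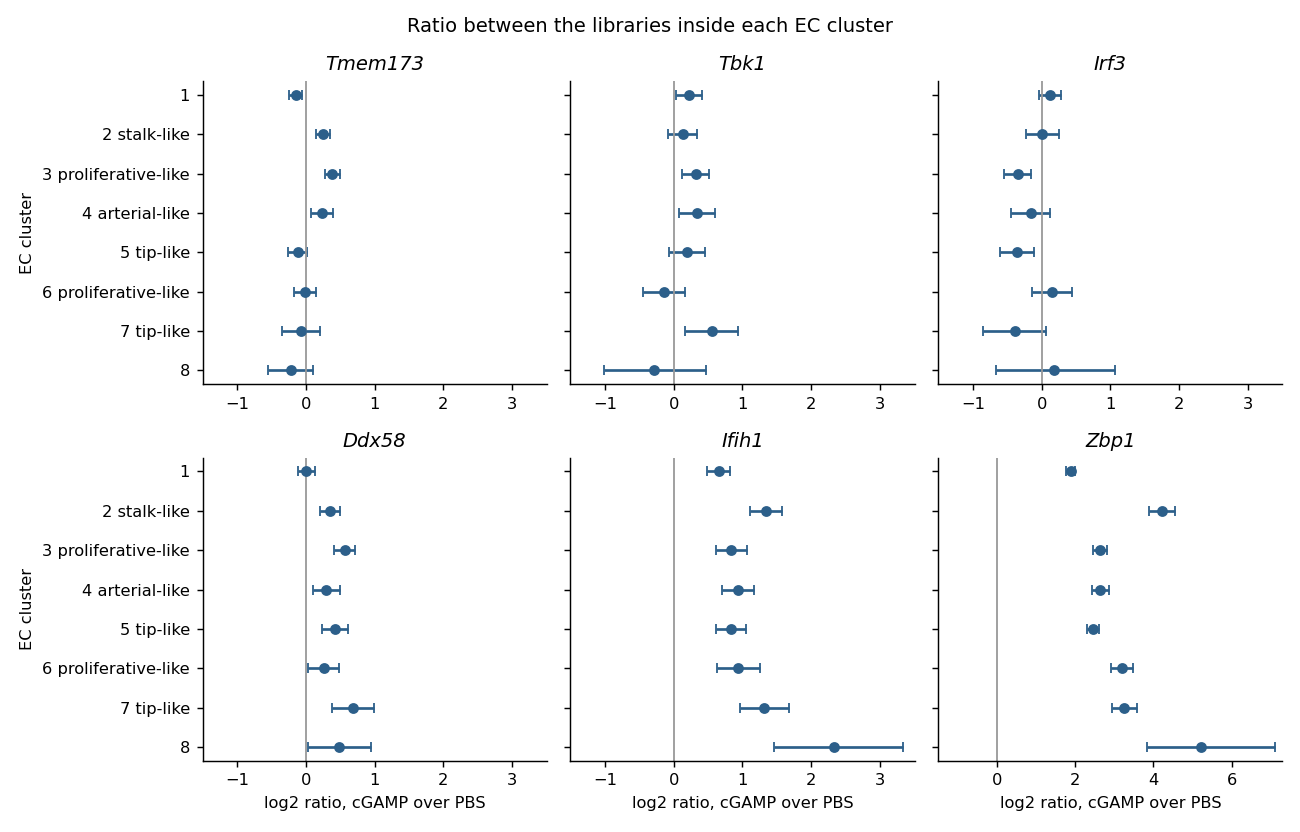
Log2 ratio of cGAMP over PBS for the 6 sensing genes above 5 CPM in each of the 8 EC clusters, with exact 95% counting intervals and a grey line at 0. The Zbp1 panel has a wider axis. All clusters lie to the right of 0 for Zbp1, Ifih1 and Ddx58, whereas those of Tmem173 and Irf3 fall on both sides.

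From the lowest to the highest of the 8 clusters Tmem173 differed by 1.98-fold in the PBS library and by 2.41-fold in the cGAMP library. Over all cells it differed by 1.15-fold between the libraries. These are unlike measures, since a range over 8 clusters takes the extremes and the other is a single ratio. In the PBS library it was highest in cluster 8 (136 CPM) and in the stalk-like cluster (133 CPM), followed by clusters 5 (109 CPM), 1 (101 CPM) and 6 (98.7 CPM), and it was lowest in clusters 3 (83.7 CPM), 4 (76.4 CPM) and 7 (68.8 CPM). In the cGAMP library the stalk-like cluster was highest, at 159 CPM (152 to 165), and cluster 7 lowest, at 65.6 CPM (56.3 to 76.0). Tip-like cluster 7, whose leading genes include the hypoxia-responsive Bnip3 and Egln3, thus had the lowest Tmem173 value in both libraries. In the PBS library its interval (61.4 to 76.9) overlapped that of the arterial-like cluster 4 (70.8 to 82.2). The log2 ratio was above 0 with its interval in clusters 2 (0.26, 0.16 to 0.36), 3 (0.39, 0.28 to 0.49) and 4 (0.23, 0.07 to 0.39), and below 0 with its interval in cluster 1 (-0.15, -0.25 to -0.05). In the other 4 clusters the intervals held 0. The stalk-like cluster gave 13.3% of the Tmem173 UMIs of the PBS library and 36.3% of those of the cGAMP library. Its share of all UMIs was 9.80% and 25.9%, so that it held more Tmem173 than its share in both libraries. It held 13.2% and 25.8% of the ECs. With equal cluster proportions in both libraries the log2 ratio of Tmem173 was 0.10.

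Tbk1 was the most even of the 6 genes in the PBS library, where its level lay between 24.2 and 29.8 CPM, a 1.23-fold range. In the cGAMP library it ranged from 24.05 CPM (16.8 to 33.3, 36 UMIs) in cluster 8 to 39.1 CPM (32.0 to 47.3) in cluster 7, with overlapping intervals. Its log2 ratio was above 0 in 6 of 8 clusters, with 4 intervals above 0 and none below. The ratio was largest in cluster 7, at 0.55 (0.16 to 0.94), where Tmem173 had its lowest values.

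Irf3 was highest in the tip-like cluster 5 of the PBS library, at 40.9 CPM, and lowest in cluster 8, at 19.4 CPM, a 2.10-fold range. The stalk-like cluster, with the second highest Tmem173 level in the PBS library, had 24.4 CPM of Irf3, the second lowest. Its log2 ratio was above 0 in 4 clusters and below 0 in the other 4. The intervals lay below 0 in clusters 3 (-0.35, -0.55 to -0.15) and 5 (-0.36, -0.61 to -0.11), and no interval lay above 0.

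Ikbke was below 2 CPM in every cluster of both libraries. Its highest level was in the tip-like cluster 7 of the PBS library, from 9 UMIs, and cluster 8 of the cGAMP library had none. In cluster 1 it had 35 PBS and 8 cGAMP UMIs, a log2 ratio of -1.31 (-2.63 to -0.18), the only cluster with an interval that left out 0. Enpp1 had at most 2 UMIs in any cluster of either library.

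Next, the relation of the sensing genes to the interferon state of a cell was described within each library, where mouse and library are held constant. Each cell was scored by the share of its UMIs from 16 interferon-stimulated genes, none of which is a sensing gene: Isg15, Ifit1, Ifit2, Ifit3, Ifit3b, Oasl2, Rsad2, Cmpk2, Rtp4, Xaf1, Irgm1, Igtp, Ifi47, Iigp1, Bst2 and Lgals3bp. All 16 were higher in the cGAMP library, against 40.4% of all genes tested. The 16 were chosen with earlier results of these data known, so this count is no separate result. Their sum was 1665 CPM in the PBS library and 5044 CPM in the cGAMP library. Cells were then cut into quartiles of this score. In each library, 2 of the 6 sensing genes above 5 CPM, Zbp1 and Ifih1, were at least 2-fold higher in the top than in the bottom quartile. This was so for 1.84% of all genes in the PBS library and for 2.53% in the cGAMP library.

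Along the score, Zbp1 went in the PBS library from 2.41 CPM in the lowest quartile through 4.30 and 10.9 CPM to 79.7 CPM in the highest. In the cGAMP library it went from 45.7 CPM through 86.3 and 162 CPM to 264 CPM. The log2 ratio of top over bottom quartile was 5.05 (4.66 to 5.47) in PBS ECs and 2.53 (2.41 to 2.65) in cGAMP ECs. The highest PBS quartile thus lay between the lowest and the second quartile of the cGAMP library. Of all Zbp1 UMIs of the PBS library, 81.5% came from its top quartile.

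Ifih1 went from 10.9 CPM through 15.1 and 19.5 CPM to 50.0 CPM over the PBS quartiles, and from 21.8 CPM through 28.5 and 47.9 CPM to 82.4 CPM over the cGAMP quartiles. The log2 ratios of top over bottom were 2.20 (1.996 to 2.40) and 1.92 (1.74 to 2.09). The PBS top quartile was above the third cGAMP quartile in value, although their intervals overlapped.

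Ddx58 went from 36.4 CPM through 40.5 and 47.8 CPM to 71.9 CPM in the PBS library, and from 48.8 CPM through 51.1 and 66.9 CPM to 90.6 CPM in the cGAMP library. The log2 ratios of top over bottom, 0.98 (0.86 to 1.10) and 0.89 (0.76 to 1.02), lay just under 2-fold. In the PBS library Ddx58 passed 2-fold with the antiviral subset of the score (1.02) and with cells thinned to 5000 UMIs (1.01), which made 3 genes there.

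The STING adaptor followed the score weakly, and in the PBS library not in every setting. Tmem173 went from 91.2 CPM in the lowest to 108 CPM in the highest quartile of the PBS library, and from 89.2 CPM through 101.9 and 125 CPM to 132 CPM in the cGAMP library. Its log2 ratios of top over bottom were 0.25 (0.16 to 0.33) and 0.57 (0.47 to 0.67), with separate intervals. In the lowest quartile of each library the Tmem173 levels were 91.2 CPM (87.3 to 95.3) and 89.2 CPM (84.5 to 94.1), with overlapping intervals. Tbk1 had log2 ratios of 0.11 (-0.05 to 0.28) and 0.39 (0.20 to 0.57). Irf3 had no detectable slope in either library, with log2 ratios of 0.09 (-0.06 to 0.24) and -0.07 (-0.26 to 0.12).

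**Figure D3:**
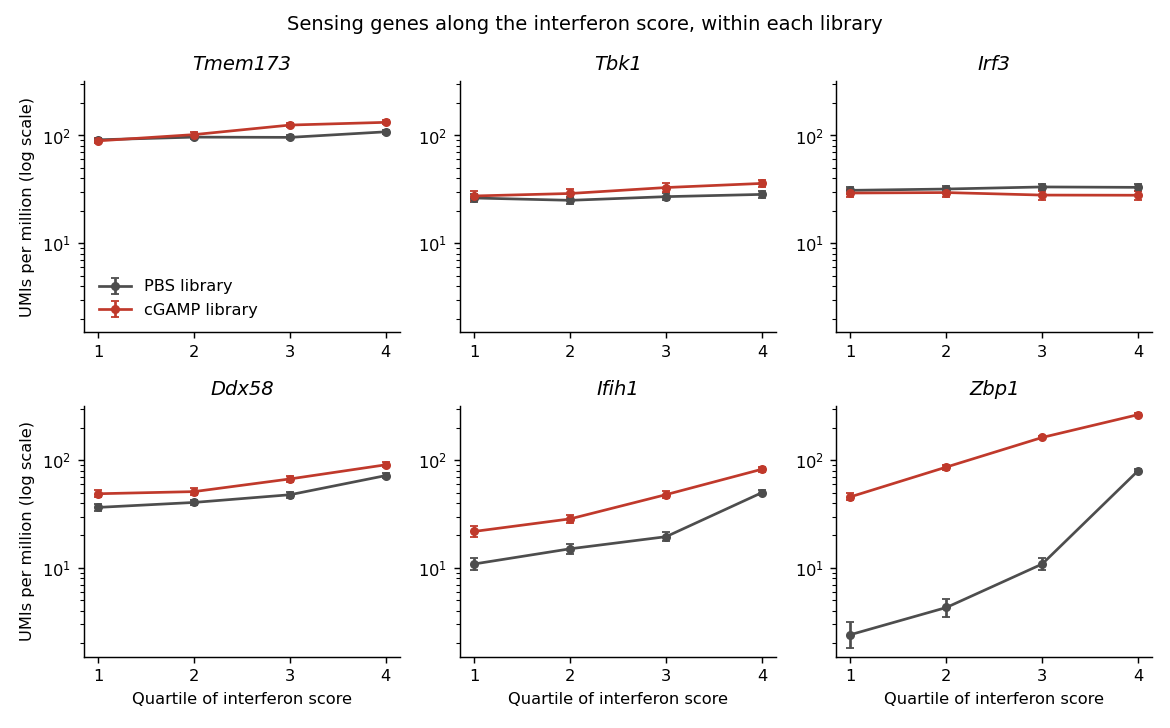
Levels of the 6 sensing genes above 5 CPM, in CPM on a log axis, in cells grouped by quartile of the interferon score within the PBS library (grey) and the cGAMP library (red), with exact Poisson 95% intervals. Zbp1 goes from 2.41 to 79.7 CPM over the PBS quartiles and from 45.7 to 264 CPM over the cGAMP quartiles, while the line of Irf3 is nearly flat in both libraries.

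Quartiles of each library cover different ranges of the score, so cells of both libraries were also cut at common score values into 4 bins. The highest bin, above 3614 CPM of score, held 200 PBS cells and 765 cGAMP cells with median scores of 6058 and 6028 CPM. In this bin the helicase genes were lower in the cGAMP library. Ifih1 stood at 92.4 CPM in PBS cells and at 61.6 CPM in cGAMP cells, a log2 ratio of -0.59 (-0.71 to -0.46), and Ddx58 at 100.1 and 75.6 CPM, a log2 ratio of -0.40 (-0.52 to -0.29). Zbp1 stood at 156 and 202 CPM, a log2 ratio of 0.37 (0.28 to 0.46), against 2.58 over all cells. Tmem173 had a log2 ratio of 0.06 (-0.04 to 0.17) and Irf3 one of -0.28 (-0.48 to -0.07).

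The cells of this bin came from different EC clusters in the 2 libraries. Cluster 1 gave 36.5% of the PBS cells and 19.2% of the cGAMP cells, and the stalk-like cluster 9.5% and 31.5%. Within clusters 1, 4 and 5, the only ones with at least 20 such cells in each library, the log2 ratio of Ddx58 was -0.52, -0.54 and -0.48, with all 3 intervals below 0. That of Ifih1 was -0.45, -0.82 and -0.25, and the interval of cluster 5 (-0.54 to 0.04) held 0. That of Zbp1 was 0.02 (-0.12 to 0.17), 0.11 (-0.18 to 0.41) and 0.99 (0.79 to 1.20). That of Tmem173 was -0.21 (-0.41 to -0.02), 0.46 (0.002 to 0.94) and -0.41 (-0.65 to -0.17), with opposite signs among these clusters. The value near 0 over all cells of the bin also covers the other clusters, and what shaped it was not tested. The median scores of these PBS and cGAMP cells were not equal, at 6296 and 5465 CPM in cluster 1, 5320 and 5973 CPM in cluster 4, and 6400 and 8429 CPM in cluster 5. When the score was made from its 10 antiviral genes alone or from the other 6 genes alone, Ifih1 (-0.32 and -0.53) and Ddx58 (-0.24 and -0.45) stayed below 0, and Zbp1 was 0.61 and 0.13. Tmem173 was 0.18 (0.08 to 0.28) and -0.05 (-0.16 to 0.07). In the next bin down, with 460 PBS cells and 504 cGAMP cells, the log2 ratio was 0.60 for Zbp1, -0.24 for Ifih1 and -0.19 for Ddx58, but there the cGAMP cells had the higher median score (2640 against 2069 CPM).

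**Figure D4:**
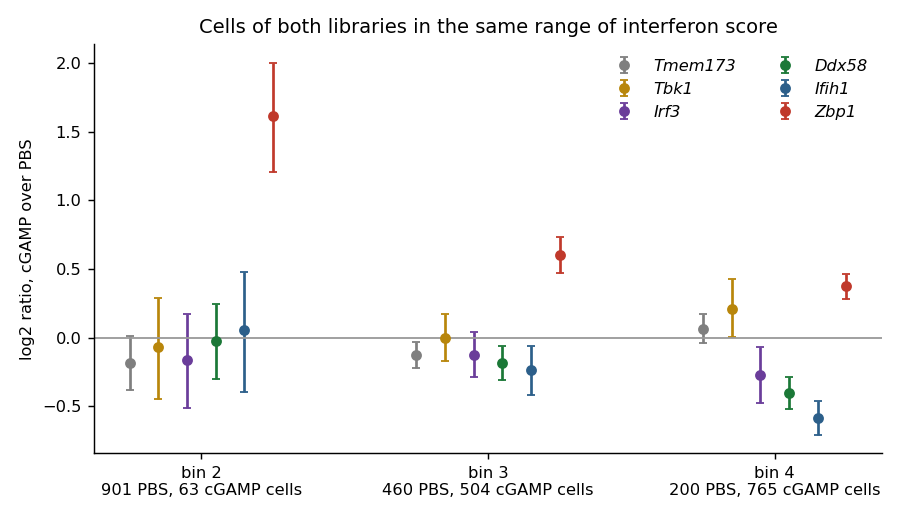
Log2 ratio of cGAMP over PBS for the 6 sensing genes above 5 CPM among cells of both libraries in the same range of interferon score, with exact 95% counting intervals and a grey line at 0. The lowest of the 4 bins is not drawn because it held 8 cGAMP cells. In the highest bin Zbp1 lies at 0.37 while Ifih1 (-0.59) and Ddx58 (-0.40) lie below 0.

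Whether the sensors occurred in the same cells was described at a depth of 10000 UMIs per cell. In the PBS library 25.3% (22.4 to 28.3) of cells with a Ddx58 UMI also had Ifih1, against 15.97% (14.1 to 18.0) of cells without Ddx58. In the cGAMP library the shares were 34.2% (30.3 to 38.2) and 31.5% (28.1 to 35.1), with overlapping intervals. For Zbp1 the shares in PBS cells with and without Ifih1 were 21.8% (18.1 to 25.8) and 12.0% (10.5 to 13.5), and in cGAMP cells 63.1% (58.3 to 67.7) and 58.2% (54.8 to 61.5). The shares of Zbp1 in cells with and without Ddx58 were 18.3% (15.8 to 21.0) and 11.2% (9.64 to 12.95) in the PBS library, and 64.4% (60.4 to 68.3) and 56.0% (52.2 to 59.7) in the cGAMP library. In the PBS library all 3 pairs of sensors thus had separate intervals, and in the cGAMP library only Zbp1 with Ddx58 did. Tmem173 occurred at like shares in PBS cells with (58.7%) and without (58.9%) Tbk1, and in cGAMP cells with (59.4%) and without (63.8%) Tbk1, with overlapping intervals in each library.

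The genes whose level followed each sensing gene most closely over the 16 points of 8 clusters in 2 libraries were sought among 7506 candidates. These correlations are descriptive, since the points share libraries, depth and cluster definitions. For Zbp1 they were Irf7 (Pearson r = 0.99), the transcription factor that amplifies the interferon response, Xaf1 (0.97) and Isg15 (0.97). For Ifih1 they were Ifit3 (0.96), Ifit3b (0.95) and Ifit1 (0.95). Those of Ddx58 were Irf1 (0.94), Iigp1 (0.93) and Casp4 (0.91). Tmem173 had a different company, Foxp4 (0.87), Il2rg (0.85) and Prcp (0.83), and so had Irf3, with Piezo2 (0.92), Mest (0.90) and Tnni1 (0.88). For Tbk1 the closest were Tmem222 (0.75), Snhg12 (0.73) and Ifi205 (0.72). With the mean of each library removed, the r of Zbp1 was 0.90 with Irf7, 0.79 with Xaf1 and 0.89 with Isg15. For Tbk1 it was 0.69 with Tmem222, 0.64 with Snhg12 and 0.65 with Ifi205. For Ifih1 and Ddx58 the values lay between 0.87 and 0.90. That of Tmem173 with Foxp4 stayed at 0.87 and that of Irf3 with Piezo2 at 0.92.

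The neighbourhood of the sensing genes was described with 6 lists of 83 genes, of which 80 were listed and 70 had at least 5 CPM. Of these 70, 40 were higher and 30 lower in the cGAMP library, against 40.4% higher among all genes tested, and their median log2 ratio was 0.05, against -0.08 over all genes tested. At least 2-fold higher were 6 of the 70, namely Ifi205, Irf7, Dhx58, Usp18, Ifi204 and Ddx60, against 1.82% of all genes tested. Of these, Ifi205 passed the 5 CPM limit through the cGAMP library only. None of the 70 was at least 2-fold lower, against 1.7% of all genes tested. Among genes with at least 20 CPM in a library, 4 of the 6 genes past 2-fold remained, against 1.70% of all genes at that level. Each of these 6 genes was also higher in every cluster, against 13.5% of all genes tested. They were picked as higher over the same cells, so this is no separate result.

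Among the DNA sensors and genes of nucleic acid clearance, 12 of 16 tested genes were higher in the cGAMP library, against 40.4% of all genes tested. Ifi205, of the PYHIN family of DNA-binding proteins, went from 0.880 to 8.38 CPM, with a log2 ratio of 3.25 (2.91 to 3.61), and reached 5 CPM in the cGAMP library only. Its relative Ifi204 went from 54.5 to 132 CPM, with a ratio of 1.28 (1.23 to 1.33) on the log2 scale. Mndal went from 152 to 224 CPM, with a log2 ratio of 0.56. These PYHIN genes are close relatives in 1 cluster of the genome, and reads may be split among them. Mb21d1, which encodes cGAS, the enzyme that makes cGAMP, stood at 10.4 CPM (9.74 to 11.1) in PBS-treated and at 15.3 CPM (14.4 to 16.3) in cGAMP-treated ECs, and its log2 ratio was 0.56 (0.43 to 0.69). Samhd1, whose product degrades deoxynucleotides, had a log2 ratio of 0.55.

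Among the RNA sensing partners 8 of 13 tested genes were higher, against 40.4% of all genes tested. Dhx58, the gene of LGP2, the third helicase of the RIG-I family, stood at 11.3 and 30.1 CPM, with a log2 ratio of 1.42 (1.31 to 1.53), larger than those of Ifih1 and Ddx58. Ddx60, a further helicase, had a log2 ratio of 1.13 and Rnf135, a ubiquitin ligase that activates RIG-I, one of 0.69. Eif2ak2, the gene of the RNA-activated kinase PKR, had one of 0.34. Mavs, the mitochondrial adaptor through which both helicases signal, was named for this role after its value was seen and was lower, at 7.05 and 5.84 CPM, with a log2 ratio of -0.27 (-0.46 to -0.09), and Ticam1, the adaptor of TLR3, had one of -0.46.

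The kinase adaptors and IRFs were divided 6 to 6, against 40.4% higher among all genes tested. Irf7 stood at 82.7 and 651 CPM, with a log2 ratio of 2.98 (2.94 to 3.01), Irf1 had a log2 ratio of 0.73 and Irf9, the DNA-binding subunit of the complex activated by type I interferon, one of 0.63. Tank, an adaptor of TBK1, had a log2 ratio of -0.44, from 26.9 to 19.9 CPM. Traf6 had one of -0.18. Irf3 therefore differed in direction from 3 IRF genes of the list.

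Among the 15 tested genes of STING traffic and turnover, 6 were higher and 9 lower, against 40.4% higher among all genes tested. Usp18, a protease that removes ISG15 and restrains interferon signalling, was the exception past 2-fold, at 20.7 and 52.0 CPM, with a log2 ratio of 1.33 (1.25 to 1.41). Rnf26, a ubiquitin ligase of STING, went from 21.8 to 14.6 CPM, with a log2 ratio of -0.58. Trim32, Npc1 and Rnf5 had log2 ratios of -0.46, -0.44 and 0.41.

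The 12 genes of cGAMP transport were all listed and 9 were tested. Of these 9, 4 were higher, against 40.4% of all genes tested, and none was past 2-fold. Slc19a1, the folate carrier that can import cyclic dinucleotides, went from 3.42 to 5.41 CPM with a log2 ratio of 0.66 (0.44 to 0.89). It passed the 5 CPM limit through the cGAMP library only. Slc46a3 had a log2 ratio of 0.38. Slc46a1 and Slc46a2 stayed below 1 CPM in both libraries. Of the LRRC8 subunits, which form a volume-regulated anion channel that passes cGAMP, Lrrc8c was the highest in UMIs, at 137 and 123 CPM, with a log2 ratio of -0.16 (-0.20 to -0.12). The obligate subunit gene Lrrc8a had a log2 ratio of -0.13, Lrrc8b one of -0.59 (-0.73 to -0.45) and Lrrc8d one of 0.04, while Lrrc8e had 19 and 4 UMIs. Gja1, the gap junction gene, stood at 285 and 299 CPM with a log2 ratio of 0.07. Abcc1, an exporter of cGAMP, had a log2 ratio of -0.29 and the ATP-gated channel gene P2rx7 one of -0.41.

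ZBP1 acts in cell death through RIPK3 and MLKL, and 4 of 5 genes of that list were higher in the cGAMP library. The share higher among all genes tested was 40.4%. Mlkl, which encodes the pore-forming effector of necroptosis, went from 34.1 CPM (32.9 to 35.3) in the PBS library to 59.3 CPM (57.4 to 61.2) in the cGAMP library. Its log2 ratio was 0.80 (0.73 to 0.87), and was higher in every cluster. Ripk3 had a log2 ratio of 0.22 (0.17 to 0.27), Casp8 one of 0.09, Fadd one of 0.02 and Ripk1 one of -0.08. None of the 5 reached 2-fold.

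**Figure D5:**
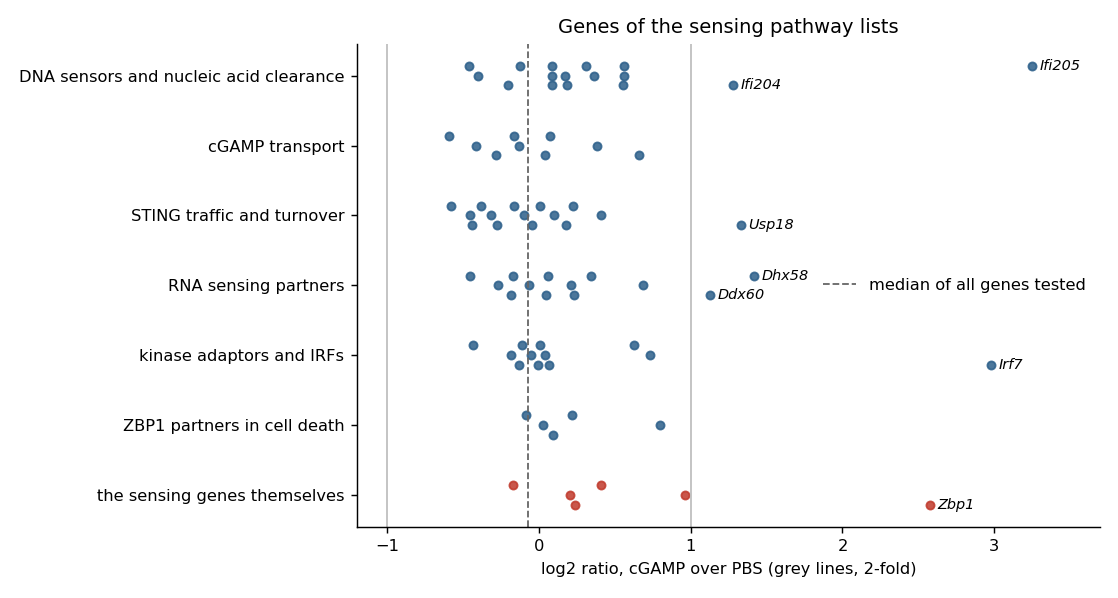
Log2 ratio of cGAMP over PBS for the 70 tested genes of 6 pathway lists (blue) and the 6 sensing genes above 5 CPM (red), each point 1 gene, with a dashed line at the median of all genes tested and grey lines at 2-fold. The genes past 2-fold are named, and no gene lies past 2-fold on the lower side, against 1.7% of all genes tested.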

How the data were processed

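The ECs of 1 PBS-injected and 1 cGAMP-injected LLC tumour were measured with a 10X Chromium 3′ kit, for which the labels and the study's methods name different versions. The submitters' processing notes name Cell Ranger 3.0.0, Seurat 3.1.1 and the build mm10. The authors removed cells with fewer than 500 genes or a mitochondrial share above 10%, and also genes seen in under 3 cells. The deposited values are natural log values of 1 plus UMIs scaled to 10000 per cell. To recover UMIs the log was undone and each value was divided by what 1 UMI is worth in its cell. In this way 100% of values came within 0.01 of a whole number. No sample was left out. No doublet caller was run, and doublet removal is not given in the sources used here.

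UMIs were summed per library, cluster or quartile and compared as CPM, with no test, since there is 1 library per condition. The intervals are exact 95% Poisson or binomial (Clopper-Pearson) intervals and cover counting error only. A count of 0 was read as allowing up to 3 counts. Clusters were built with Seurat 5.3.0 in R 4.3.3 from 2500 variable genes, of which 1779 were kept, with integration, 30 components and Louvain resolution 0.5. A cluster took the class with the most markers raised at least 2-fold in it, if these were 3 or more, at least 1 was among its 10 leading genes and no other class had more there. The rest used Python 3.11.15 with numpy 2.4.6, scipy 1.17.1 and pandas 2.3.3, and the code was tested on simulated data. Correlations used log2(CPM + 5) of genes with at least 20 CPM in 1 or more of the 16 points.

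The text names all sensing genes, up to 5 genes of each list with the largest log2 ratio in size, all genes of cGAMP transport, and the 3 genes closest to each sensing gene. The sensing genes, the lists and the interferon score were chosen with earlier results of these data known. The alternatives covered scaling, filters on cells and genes, clustering, score and thinning. Ratios inside clusters and under other scores at like interferon score were added after the data were seen.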

Additional observations from a re-analysis of the deposited data

Results flagged for a closer look

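Tmem173 had log2 ratios of opposite sign in different EC clusters. The highest value with an interval above 0 was 0.385 (0.28 to 0.49) in the proliferative-like cluster 3, and the lowest with an interval below 0 was -0.147 (-0.25 to -0.05) in the unnamed cluster 1. The intervals cover counting error only. With 1 mouse per condition the difference between these clusters was not tested.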

How the results depend on the processing

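Zbp1 kept a log2 ratio between 2.44 and 2.67 and Ifih1 one between 0.86 and 1.04 over 6 alternatives of scaling, cell filter and thinning. The ranges were 0.32 to 0.52 for Ddx58, 0.10 to 0.29 for Tmem173, 0.20 to 0.32 for Tbk1 and -0.19 to -0.09 for Irf3. Sensing genes at least 2-fold higher numbered 2 with median-of-ratios scaling, where Ifih1 had a log2 ratio of 1.04, against 1 in CPM. That scaling moved the median of all genes from -0.08 to 0.01. Sensing genes higher in every cluster numbered 1, Zbp1, when clusters were built from all variable genes but the sensing genes, against 3. The cause was not tested. The count was 4 at resolution 0.3, with Tbk1 added, and 3 without integration, where Tbk1 stood in place of Ddx58. Higher in every cluster were 13.5% of all genes tested in the main clusters and 11.7% with all variable genes but the sensing genes. At resolution 0.3 the share was 25.8% and without integration 18.0%. In the PBS library Ddx58 became the third gene at least 2-fold higher in the top interferon quartile with the antiviral score and with thinning to 5000 UMIs. With no filter on low values, 6.06% of all genes were at least 2-fold higher and 11.4% at least 2-fold lower. No paired analysis was possible because each condition has 1 library. Depth limits Ikbke and Enpp1, whose sums of 91 and 46 and of 7 and 3 UMIs gave ratios over all cells whose intervals held 0, and all intervals leave out the spread between mice.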
